A study of Bos taurus with 15 samples.

Results

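The B cells of the NB ileum were chosen by the UMIs of 3 genes in a single-cell RNA sequencing library of newborn Holstein ileum. *MS4A1* encodes CD20 of the B cell surface, and *CD79A* encodes a signaling chain of the B cell receptor. A barcode entered the gate when it held at least 1 UMI (1 counted RNA molecule) of both and 0 UMIs of *CD3E*, a chain of the T cell receptor complex. Barcodes also had to show 500 to 4000 genes and fewer than 50000 UMIs. The gate held 3579 of the 7566 barcodes within these limits, or 47.3% (Clopper-Pearson 95% interval 46.2% to 48.4%), and 54.3% of the 6593 barcodes that the same gate found in all 15 libraries. Because *MS4A1*, *CD79A*, and *CD3E* chose the cells, their levels are not results.

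In young ruminants the ileum carries a long continuous Peyer's patch, a chain of lymphoid follicles in which B cells divide and alter their antigen receptor genes, and which shrinks as the animal matures. In follicles of the germinal center type, B cells alternate between a dark zone, where they divide and mutate their receptor genes, and a light zone, where they display antigen on class II MHC molecules to T cells. B cells that have not yet entered such a follicle carry homing and exit receptors such as CCR7. Those that leave it as plasma cells switch on the secretory program of *JCHAIN*, *MZB1*, and *PRDM1*.

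All cattle were Holstein, and none of the libraries carried an experimental treatment. The 11 NB libraries came from newborn calves, and the calf behind each is not named in the labels. The 4 AD libraries came from a single lactating cow. With a single library for every tissue at every stage, no difference below has a replicate check, and no test was made. NB intestines were treated with EDTA, trypsin, and a lamina propria kit. AD duodenum and cecum were treated with the lamina propria kit alone, and AD jejunum and colon with a multi tissue kit. NB liver was treated with collagenase I and papain, and NB salivary gland (the parotid) with collagenase II and dispase. Stage, animal, and dissociation therefore cannot be told apart. AD ileum was not analysed here.

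The other libraries with at least 50 gate cells were Colon NB with 892 cells, Liver NB with 53, Salivary gland NB with 440, Duodenum AD with 647, Jejunum AD with 279, Cecum AD with 439, and Colon AD with 204. The share of barcodes in the gate was 18.6% in Colon NB and 16.3% in Salivary gland NB, and between 0.416% and 6.23% in the other 5. The remaining 7 libraries, all NB, held 0 to 39 gate cells each, with 39 in Cecum NB and 18 in Rectum NB. Total UMIs per library ran from 17707625 to 129458578, with 70858711 in Ileum NB. The ileum gate cells had a median of 5285 UMIs (quartiles 3088.5 and 9127.5) and 1708 genes. The median was 4392.5 to 9335 UMIs in the 7 libraries they were compared with. A level is given as CPM, the UMIs of a gene or list in the gate cells of a library scaled to 1000000 UMIs of those cells. It carries exact Poisson intervals at 95% that cover counting error only. Of the 3579 ileum barcodes, 150 were also listed in another library and 3 were gate barcodes there.

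The ileum cells carried the B cell program beyond the genes that chose them. All 20 measured genes of a B lineage list were present and summed to 4746 CPM, against 260 CPM in the 78 T cells of the same library (at least 1 UMI of *CD3E*, 0 of *MS4A1* and *CD79A*) and 451 CPM in its 522 non-leukocytes (at least 1 UMI of *COL1A2*, 0 of *PTPRC*). *CD79B*, the partner of CD79A, stood at 531 CPM in the gate cells, 15.8 CPM in the T cells, and 41.5 CPM in the non-leukocytes. *PAX5*, the factor that keeps B cell identity, stood at 50.1, 0, and 3.67 CPM in the same order. Markers of other cell types were low in the ileum gate cells: the T cell list (14 genes, 4 of them at 0) summed to 105 CPM and the myeloid list (14 genes) to 141 CPM. The epithelial list (12 genes, 1 at 0) summed to 51.8 CPM and the stromal list (12 genes) to 119 CPM. A UMI of the epithelial gene *EPCAM* was still found in 10.4% of the ileum gate cells, beside 14.2% of the other barcodes of the library. Among the Colon NB gate cells the share was 10.7%.

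Some of the gate cells used for comparison were less clean. The Liver NB cells summed to 1283 CPM of the B lineage list, with *CD22* at 17.9 CPM against 93.1 CPM in the ileum, and to 5359 CPM of the myeloid list, so they are called Liver NB gate cells by their rule. The myeloid list stood at 1565 CPM in Jejunum AD and the stromal list at 3400 CPM in Salivary gland NB. The part of these cells or of their free RNA in the differences below was not tested.

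The ileum B cells held the highest level of cell cycle genes of the 8 libraries. The G2M list, 56 genes of late cell cycle and mitosis, summed to 11712 CPM (11669 to 11754) in Ileum NB. It stood at 9849 CPM in Colon NB, 6426 CPM in Liver NB, 4101 CPM in Duodenum AD, 3237 CPM in Cecum AD, 2633 CPM in Colon AD, 1905 CPM in Salivary gland NB, and 1355 CPM in Jejunum AD. The order therefore placed NB ileum and NB colon at the top, with a ratio between them of 1.19 (1.18 to 1.2), and NB salivary gland among the AD tissues. The 39 gate cells of Cecum NB stood at 3502 CPM.

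The S phase list, 42 genes of DNA replication, summed to 5879 CPM in Ileum NB, 4451 CPM in Colon NB, 2765 CPM in Liver NB, 1999 CPM in Cecum AD, 1991 CPM in Duodenum AD, 1247 CPM in Colon AD, 1217 CPM in Salivary gland NB, and 981 CPM in Jejunum AD. The ratio of Ileum NB to Colon NB was 1.32 (1.30 to 1.34), above the ratio for the G2M list. In the other cells of the ileum library, the G2M list stood at 1870 CPM in T cells and 2455 CPM in non-leukocytes, and the S phase list at 1211 and 1474 CPM.

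*MKI67*, *TOP2A*, and *PCNA*, single genes of these lists, were also highest in NB ileum and next highest in NB colon. *MKI67*, which encodes the Ki-67 protein of dividing cells, stood at 426 CPM in Ileum NB, 390 CPM in Colon NB, 261 CPM in Liver NB, 256 CPM in Duodenum AD, 143 CPM in Cecum AD, 140 CPM in Colon AD, 58.2 CPM in Jejunum AD, and 18.3 CPM in Salivary gland NB. Its ratio of Ileum NB to Colon NB was 1.09 (1.04 to 1.14) and to Salivary gland NB 23.2 (17.1 to 32.2). *TOP2A*, the topoisomerase that untangles replicated chromosomes, stood at 655 CPM in Ileum NB, 567 CPM in Colon NB, 342 CPM in Liver NB, 132, 24.5, 93.4, and 72.6 CPM in Duodenum, Jejunum, Cecum, and Colon AD, and 21.0 CPM in Salivary gland NB. *PCNA*, the sliding clamp of DNA polymerase, stood at 872 CPM in Ileum NB against 615 CPM in Colon NB and 89.9 to 412 CPM in the other 6 libraries, and its ratio to Colon NB was 1.42 (1.37 to 1.47).

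Counted gene by gene, the cell cycle lists stood above the NB and AD means but within 2-fold of NB colon. A difference is the log2 of CPM plus 5 in Ileum NB minus that of a reference, over genes with at least 10 CPM in either, and past 2-fold means past 1 on this scale. The NB mean is the equal-weight mean of the CPM of Colon NB, Liver NB, and Salivary gland NB, and the AD mean that of the 4 AD libraries. Of the 54 G2M genes measured, 20 were over 2-fold higher than the NB mean, where 3.79% of all 7211 genes were. Against the AD mean, where 11.9% of 7170 genes were higher, 50 were over 2-fold higher. Of the 41 S phase genes, 17 were over 2-fold higher than the NB mean and 36 than the AD mean. No gene of either list was over 2-fold lower than either mean. Against Colon NB alone, where 0.481% of 6865 genes were over 2-fold higher, no gene of either list was. The median differences were 0.27 (G2M) and 0.34 (S phase) beside 0.05 over all genes. Against Salivary gland NB, where 15.5% of 7344 genes were higher, 51 G2M and 36 S phase genes were.

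To compare cells of unequal depth, each was thinned at random to 1000 UMIs, which left out 27 of the 3579 ileum cells. A UMI of *MKI67* was then found in 860 of 3552 ileum B cells, or 24.2% (Clopper-Pearson 22.8% to 25.7%), and in 49.1% before thinning. In cells of the same library that serve as the background, the thinned share was 1.35% (1 of 74 T cells, median 3679 UMIs before thinning) and 2.5% (13 of 521 non-leukocytes, median 4765.5 UMIs). The share in the ileum B cells was thus above the share in these T cells and non-leukocytes beyond counting error. Other cells of the library were not compared in this way.

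By the same count the thinned share with *MKI67* was 15.9% in Colon NB (13.6% to 18.5%, unthinned 32.7%), 15.4% in Liver NB (6.88% to 28.1%, 8 of 52 cells), 6.36% in Duodenum AD (4.60% to 8.52%), 3.87% in Cecum AD (2.27% to 6.13%), 2.87% in Jejunum AD (1.25% to 5.57%), 2.45% in Colon AD (0.801% to 5.63%), and 0.682% in Salivary gland NB (0.141% to 1.98%). Ileum and colon of the NB stage did not overlap in their counting intervals, whereas ileum and liver did. The share in Salivary gland NB was not above that of its non-leukocytes (2.54%, 0.527% to 7.25%), and it was below that of its T cells (2.97%). The T cells of Jejunum AD, which carried the G2M list at 3546 CPM, are no background, and none of its 38 non-leukocytes had a UMI (upper bound 9.25%). The share in Colon AD was not above its T cells (1.74%) or non-leukocytes (0.610%) beyond counting error.

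**Figure D1:**
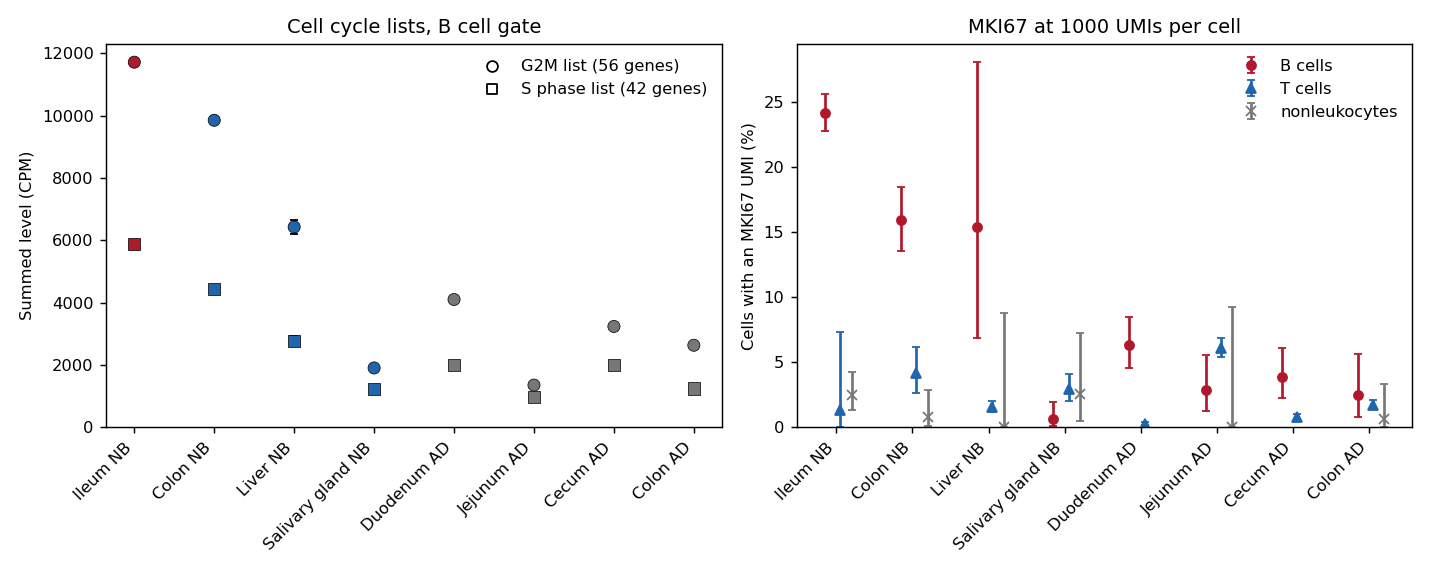
Left, summed level of the G2M list (circles) and the S phase list (squares) in the gate cells of each library in CPM, with exact Poisson intervals. Right, share of cells in percent with at least 1 UMI of *MKI67* after thinning to 1000 UMIs, for B cells, T cells, and non-leukocytes of each library, with Clopper-Pearson intervals and groups under 20 cells not drawn. Ileum NB is the highest B cell point in both panels (11712 CPM for the G2M list and 24.2% with *MKI67*), and Colon NB is next.

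Cell cycle RNA was found in most of the ileum B cells in unequal amounts. At 1000 UMIs, 319 of 3552 cells held 30 or more UMIs of the G2M list, and 71.3% (2534) carried at least 3, against 32.4% of the ileum T cells and 19.8% of its non-leukocytes. The share was 56.4% in Colon NB, 48.1% in Liver NB, 26.4% in Salivary gland NB, and 11.5% to 27.3% in the AD libraries. The mark of 3 UMIs cuts through a continuous range, with 416 ileum cells at exactly 2 and 329 at exactly 3, and the T cells of the 8 libraries reached it in 16.8% to 32.4%.

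Both lists reached 3 UMIs in 1827 of the 3552 ileum cells, or 51.4% (49.8% to 53.1%), the G2M list alone in 707 (19.9%), the S phase list alone in 287 (8.08%), and neither in 731 (20.6%). Both reached it in 31.6% of the Colon NB cells, 25% in Liver NB, 9.61% in Duodenum AD, 7.29% in Cecum AD, 4.41% in Colon AD, 4.09% in Salivary gland NB, and 2.15% in Jejunum AD. In the ileum the cells at or above both marks had a median of 7460 UMIs before thinning, and the cells below both had 3599. Cells of the same library that carried more cell cycle RNA thus also yielded more UMIs.

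**Figure D2:**
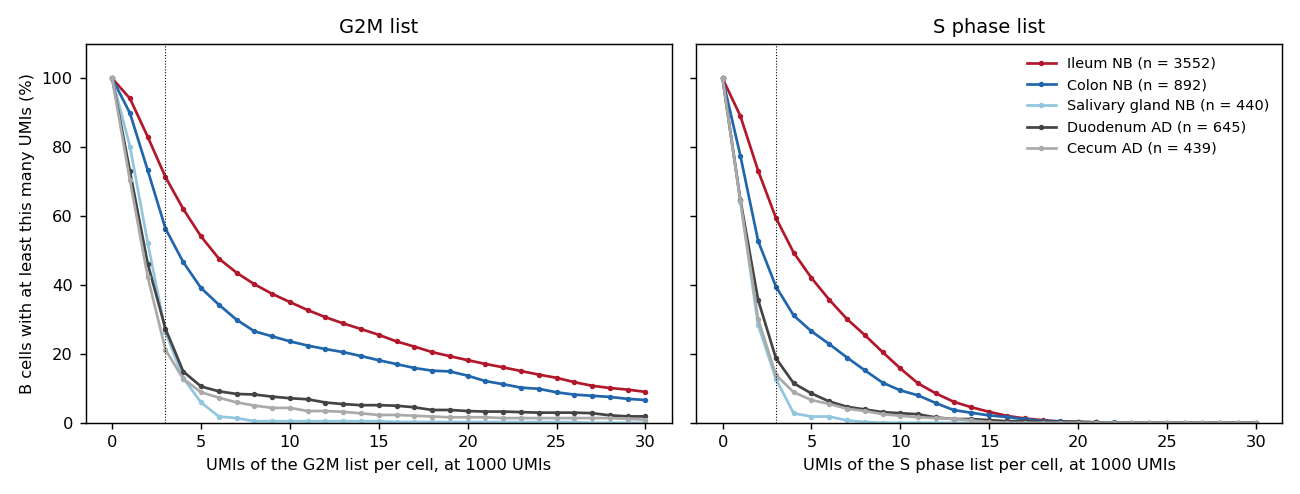
Share of gate cells in percent (vertical axis) that carried at least the number of UMIs on the horizontal axis, for the G2M list (left) and the S phase list (right), after thinning to 1000 UMIs. The last point stands for 30 or more UMIs, and the dotted line marks 3 UMIs, which 71.3% of the Ileum NB cells reached for the G2M list, against 56.4% in Colon NB and 26.4% in Salivary gland NB.

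The gate cut off the deepest part of this range. Within the gate, the 205 cells with 3500 to 4000 genes had *MKI67* in 93.2% before thinning, and just outside it the 145 barcodes with 4001 to 4500 genes that met the other conditions had it in 97.2%. At the lower limit, the 50 cells with 500 to 600 genes had it in 18.0%, and the 26 barcodes with 400 to 499 genes in 26.9%. Barcodes with *MS4A1* but not *CD79A* (735) had *MKI67* in 33.6%, those with *CD79A* but not *MS4A1* (613) in 25.9%, and the 32 kept out by *CD3E* in 62.5%. Inside the gate, cells with exactly 1 UMI of both genes (206) had it in 31.6% and cells with at least 2 of both (2479) in 55.7%. All these shares are unthinned, and depth differed. The median was 2773, 3228, and 5972 UMIs in the last 3 sets outside the gate, in the order given. Inside the gate it was 2495 UMIs at 1 UMI and 6639 UMIs at 2 or more. The part of depth in these shares was not tested. Among the 3579 cells, 10 had at least 40% mitochondrial UMIs.

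Genes of the germinal center reaction were high in the NB ileum and colon cells, and their sum was not far lower in AD duodenum, cecum, and colon. The list summed to 2854 CPM in the B cells and 1550 CPM in the T cells of Ileum NB. In the B cell gate it stood at 2638 CPM in Colon NB, 1399 CPM in Salivary gland NB, and 740 CPM in Liver NB. The AD values were 2517, 708, 2189, and 2042 CPM in Duodenum, Jejunum, Cecum, and Colon AD. Of 18 genes measured, 9 were over 2-fold higher than the NB mean (3.79% of all genes) and none was lower, and the median difference was 1.05 beside 0.07 over all genes. The count was 4 without Liver NB and 4 without Salivary gland NB in the mean. Against Liver NB, whose gate cells held little B lineage RNA, 12 of 19 were higher and 1 was lower, where 11.3% and 12.2% of all genes were. Against Salivary gland NB, 13 of 18 were over 2-fold higher and 1 was lower (15.5% and 9.97% of all genes), and against Colon NB none was past 2-fold in either direction, with a median of 0.09. Against the AD mean, 5 were higher and 2 were lower, where 11.9% and 6.89% of all genes were.

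*MEF2B*, a transcription factor of germinal center B cells, stood at 433 CPM in Ileum NB, 334 CPM in Colon NB, 0 in Liver NB, and 5.24 CPM in Salivary gland NB. The AD values were 212, 19.2, 182, and 133 CPM in Duodenum, Jejunum, Cecum, and Colon AD. Its level in Ileum NB was the highest of the 8, at 1.29 times Colon NB (1.24 to 1.35) and 82.5 times Salivary gland NB (47.2 to 160). The T cells and non-leukocytes of the ileum held 25.4 and 34.9 CPM. At 1000 UMIs, *MEF2B* was found in 32.3% of the ileum B cells (30.8% to 33.9%, unthinned 73.2%), 22.9% of those of Colon NB, 15.2% of those of Duodenum AD, and none of 440 in Salivary gland NB, beside 1.35% of the ileum T cells and 2.69% of its non-leukocytes.

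*RGS13*, which damps chemokine signaling in germinal center B cells, stood at 300 CPM in Ileum NB, 169 CPM in Colon NB, 328 CPM in Duodenum AD, 21.4 CPM in Jejunum AD, 293 CPM in Cecum AD, and 213 CPM in Colon AD. No UMI was counted in Liver NB or Salivary gland NB. Against the level that a count of 0 allows (3 UMIs per library), Ileum NB was at least 229-fold higher than Salivary gland NB and at least 50.3-fold higher than Liver NB. Unlike the cell cycle lists, *RGS13* was at a similar level in AD duodenum and cecum, with ratios of Ileum NB to them of 0.914 (0.864 to 0.968) and 1.02 (0.951 to 1.10).

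*HMCES*, which protects abasic sites in DNA, stood at 573 CPM in Ileum NB, 548 CPM in Colon NB, 177 to 291 CPM in Duodenum, Cecum, and Colon AD, and 35.8 to 64.2 CPM in Liver NB, Salivary gland NB, and Jejunum AD.

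*S1PR2*, *MYBL1*, and *EZH2* had their highest point values of the 8 libraries in NB ileum, and for *S1PR2* the interval of the ratio to Duodenum AD included 1. *S1PR2*, the receptor that confines B cells to the follicle, stood at 74.0 CPM in Ileum NB, 64.8 CPM in Colon NB, 67.9 CPM in Duodenum AD, 0.437 CPM in Salivary gland NB, and 3.98 to 48.7 CPM in the other 4. *MYBL1* stood at 109 CPM in Ileum NB, 94.5 CPM in Colon NB, 87.9 CPM in Duodenum AD, 0 in Salivary gland NB, and 3.98 to 53.7 CPM in the other 4. *EZH2*, a histone methyltransferase that germinal center B cells need, stood at 177 CPM in Ileum NB, 148 CPM in Colon NB, 99.5 CPM in Liver NB, 24.9 CPM in Salivary gland NB, and 18.8 to 73.9 CPM in the AD libraries. *BCL6*, the repressor at the center of the program, did not follow them. It stood at 85.2 CPM in Ileum NB, 94.5 CPM in Colon NB, 53.7 CPM in Liver NB, and 42.8 CPM in Salivary gland NB. The AD values were 157, 16.6, 103, and 113 CPM in Duodenum, Jejunum, Cecum, and Colon AD.

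The lists for the zones of the germinal center and for receptor diversification share genes with the lists above. Of 7 dark zone genes measured, 5 were over 2-fold higher than the AD mean (11.9% of all genes), 2 than the NB mean (3.79%), and 0 than Colon NB, and none was lower than these. The 8 in the files summed to 8447 CPM in Ileum NB and 7082 CPM in Colon NB, carried mainly by *STMN1* (3243 CPM in Ileum NB), *TUBA1B* (2526 CPM), and *HMGB2* (1771 CPM), which are high in dividing cells of many kinds. *CXCR4*, the dark zone homing receptor, stood at 802 CPM in Ileum NB and 886 CPM in Colon NB. It was highest in Salivary gland NB at 3298 CPM, and stood at 87.1 to 583 CPM in the AD libraries. Of 15 light zone genes, none was over 2-fold higher and 3 were over 2-fold lower than the NB mean, where 7.02% of all genes were lower. Against the AD mean 2 of 16 were higher and 2 were lower (11.9% and 6.89% of all genes), and the summed list stood at 1591 CPM in Ileum NB, 1787 CPM in Colon NB, 1520 CPM in Liver NB, 2414 CPM in Salivary gland NB, and 1009 to 1550 CPM in the AD libraries. Of 18 diversification genes, 4 were over 2-fold higher than the AD mean (11.9% of all genes), and against the NB mean none was higher and 1 was lower. The sum of the 19 in the files was 975 CPM in Ileum NB, 806 CPM in Colon NB, and 469 to 719 CPM in the other 6 libraries.

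**Figure D3:**
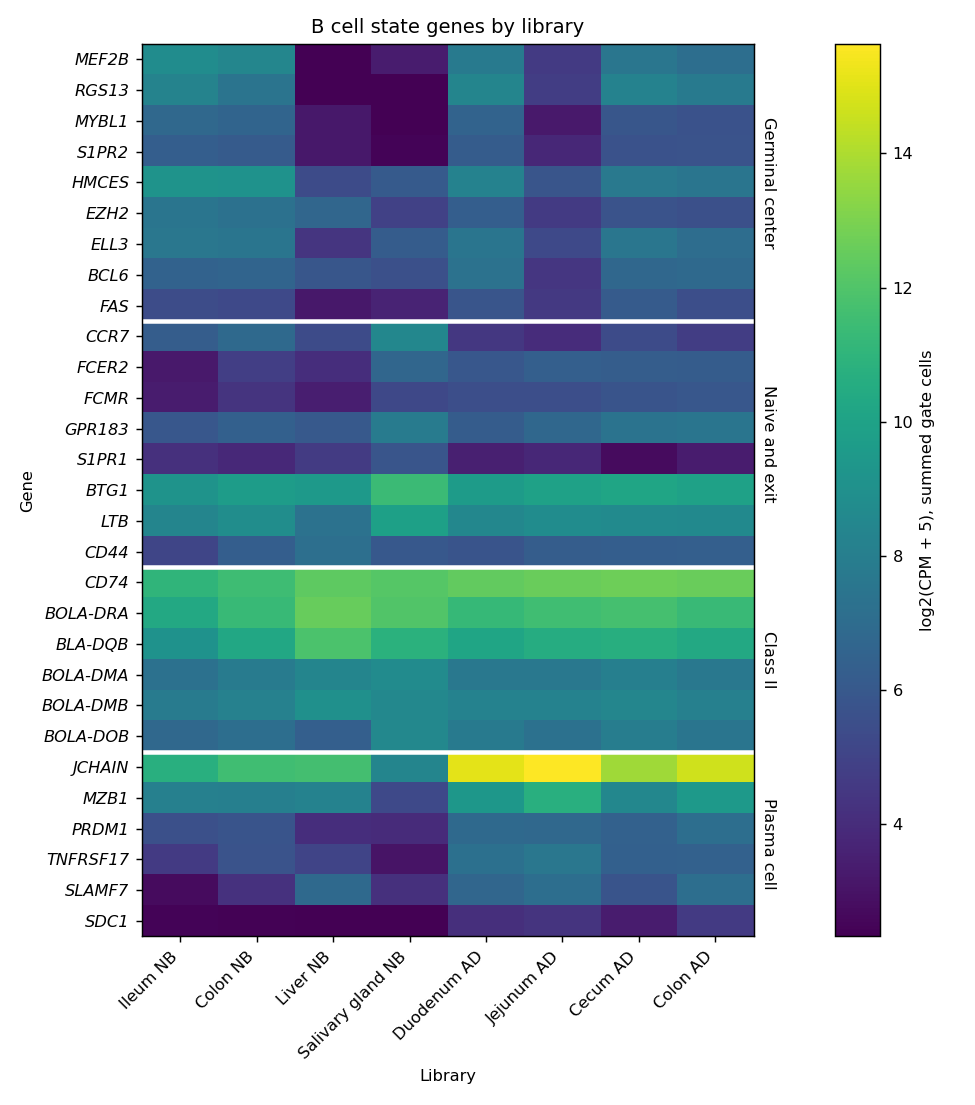
Heatmap of log2 of CPM plus 5 (color scale) for genes of the germinal center, the naive and exit state, class II MHC, and the plasma cell (rows) in the gate cells of 8 libraries (columns). *MEF2B* is highest in Ileum NB and next highest in Colon NB, whereas *RGS13* is higher in Duodenum, Cecum, and Colon AD than in Colon NB. Both are at 0 to 5.24 CPM in Liver NB and Salivary gland NB. *CCR7* is highest in Salivary gland NB (356 CPM), and *JCHAIN* is highest in the AD libraries (13835 to 50836 CPM).

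Many genes of resting, recirculating B cells were lower in the ileum than in the NB salivary gland. Of 16 genes of this naive list measured, 9 were over 2-fold lower than the NB mean (7.02% of all genes) and none was higher, with a median difference of -1.09 beside 0.07 over all genes. The count was 5 without Salivary gland NB in the mean. Against Liver NB, 5 of 15 were lower and 3 were higher (12.2% and 11.3% of all genes). Against Salivary gland NB, where 9.97% of all genes were over 2-fold lower, 13 of 15 were, and against Colon NB, where 1.31% were, 1 of 14 was. Against the AD mean, 3 of 14 were lower and 1 was higher (6.89% and 11.9% of all genes). The summed list stood at 1276 CPM in Ileum NB, the lowest of the 8, 1822 CPM in Colon NB, 5061 CPM in Salivary gland NB, 2658 CPM in Liver NB, and 1593 to 2095 CPM in the AD libraries. The list is not particular to B cells, since T cells and non-leukocytes stood at 6016 and 4525 CPM in Salivary gland NB and at 3154 and 1417 CPM in Ileum NB.

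*CCR7*, which draws B cells toward T cell areas, stood at 71.3 CPM in Ileum NB, 112 CPM in Colon NB, 35.8 CPM in Liver NB, 356 CPM in Salivary gland NB, and 11.4 to 35.6 CPM in the AD libraries. It was thus lower in Ileum NB than in NB colon and salivary gland, with ratios of 0.634 (0.581 to 0.692) and 0.200 (0.184 to 0.218). Its point value was above every AD library. *FCER2*, which encodes CD23 of mature resting B cells, stood at 4.46 CPM in Ileum NB, 22.7 CPM in Colon NB, 11.9 CPM in Liver NB, 98.7 CPM in Salivary gland NB, and 56.2 to 75.2 CPM in the AD libraries. *FCMR*, the Fc receptor for IgM, stood at 5.11 CPM in Ileum NB against 5.97 CPM in Liver NB (3 UMIs, 1.23 to 17.4 CPM) and 14.8 to 55.4 CPM in the other 6. For both genes the interval of the ratio to Liver NB included 1.

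*BTG1*, which slows cell division, stood at 560 CPM in Ileum NB, 829 CPM in Colon NB, 694 CPM in Liver NB, 2675 CPM in Salivary gland NB, and 784 to 1135 CPM in the AD libraries, so Ileum NB was the lowest of the 8. *CD44*, an adhesion receptor for hyaluronan, was also lowest in Ileum NB, at 29.6 CPM against 50.5 to 141 CPM in the other 7. *GPR183*, which guides activated B cells to the outer follicle, stood at 55.5 CPM in Ileum NB, not apart from Liver NB (59.7 CPM, 40.3 to 85.2 CPM) beyond counting error, and reached 226 CPM in Salivary gland NB. *IRF8*, a transcription factor of the B lineage, stood at 6.23 CPM in Ileum NB and 9.13 CPM in Colon NB, against 89.7 to 102 CPM in the AD libraries. *MYC* stood at 45.5 CPM in Ileum NB, 65.1 CPM in Colon NB, 424 CPM in Salivary gland NB, and 31.9 to 48.8 CPM in the AD libraries, and did not follow the cell cycle lists.

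Class II MHC genes, whose products present antigen to helper T cells, were lowest in the ileum cells as a summed list. The 15 genes in the files summed to 4530 CPM in Ileum NB, 7371 CPM in Colon NB, and 10030 to 15744 CPM in the other 6 libraries. The ratio of Ileum NB to Colon NB was 0.615 (0.608 to 0.621). Of 10 genes measured, 4 were over 2-fold lower than the NB mean (7.02% of all genes) and none was higher, and of 9, 3 were over 2-fold lower than the AD mean (6.89%). *BOLA-DRA*, the alpha chain of DR, stood at 1285 CPM in Ileum NB, 2459 CPM in Colon NB, 5851 CPM in Liver NB, and 4121 CPM in Salivary gland NB. The AD values were 2370, 3033, 3380, and 2553 CPM in Duodenum, Jejunum, Cecum, and Colon AD. *BLA-DQB*, a DQ beta chain, stood at 552 CPM in Ileum NB, 1275 CPM in Colon NB, and 1148 to 3662 CPM in the others. *CD74*, the invariant chain that escorts class II molecules, stood at 2119 CPM in Ileum NB, 2892 CPM in Colon NB, and 4448 to 6554 CPM in the others. The regulator *CIITA* was less far apart, at 18.5 CPM in Ileum NB, 19.9 CPM in Colon NB, 11.9 CPM in Liver NB, and 27.1 to 42.0 CPM in the other 5. In Liver NB the high class II values stood beside 5359 CPM of the myeloid list, in Jejunum AD beside 1565 CPM, and in the other libraries beside 113 to 329 CPM.

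*JCHAIN* and several other plasma cell genes were far below the AD libraries. *JCHAIN*, the chain that joins secreted IgA and IgM into polymers, stood at 1653 CPM in Ileum NB, 2998 CPM in Colon NB, 3272 CPM in Liver NB, and 326 CPM in Salivary gland NB. The AD values were 34492, 50836, 13835, and 26185 CPM in Duodenum, Jejunum, Cecum, and Colon AD. Of the 19 plasma cell genes measured against the AD mean, 9 were over 2-fold lower (6.89% of all genes) and none was higher, whereas against the NB mean 2 of 16 were lower (7.02%) and none was higher. The NB libraries differed in this, since against Salivary gland NB alone 10 of 16 were higher and 3 were lower (15.5% and 9.97%). Against Colon NB none of 16 was higher and 2 were lower, where 0.481% and 1.31% of all genes were. In the T cells of the same libraries, which should lack *JCHAIN*, it stood at 1005 to 5402 CPM in the AD tissues and 38.0 CPM in Ileum NB, and the part of free RNA in the difference was not tested. *MZB1*, an endoplasmic reticulum chaperone of antibody secretion, stood at 273 CPM in Ileum NB, 262 CPM in Colon NB, 32.8 CPM in Salivary gland NB, and 355 to 1655 CPM in the AD libraries. *TNFRSF17*, the survival receptor BCMA, stood at 18.9 CPM in Ileum NB, 48.2 CPM in Colon NB, 3.06 CPM in Salivary gland NB, and 79.4 to 192 CPM in the AD libraries. *CCR9*, a small intestinal homing receptor, was at 0.121 CPM (3 UMIs) in Ileum NB, 0.609 CPM in Colon NB, and 69.1 and 137 CPM in Duodenum AD and Jejunum AD. The gate asks for *MS4A1*, which plasma cells lose, so plasma cells without it are outside these values.

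A small set of ileum cells held most of the *JCHAIN*. Cells with at least 1% of their UMIs from *JCHAIN* were 244 of 3579 (6.82%) and held 25318 of its UMIs, against 15778 in the rest. *JCHAIN* chose these cells, so their large part of it follows partly from the rule. Such cells were 8.52% of the gate cells in Colon NB, 0.227% in Salivary gland NB, and 11.8% to 28.0% in the AD libraries. Compared with the remaining ileum cells, these 244 had *TNFRSF17* at 249 against 7.43 CPM and *CCR10*, a homing receptor of IgA cells, at 87.4 against 1.94 CPM. *PRDM1*, the master repressor of the plasma cell program, stood at 248 against 31.6 CPM and *MZB1* at 2023 against 186 CPM. Their G2M list stood at 3803 against 12105 CPM, and *MKI67* was found at 1000 UMIs in 14 of 243 (5.76%, 3.19% to 9.48%) against 846 of 3309 (25.6%, 24.1% to 27.1%). The cells rich in *JCHAIN* were thus less often positive for *MKI67*, at median depths of 4262 and 5445 UMIs.

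The cells rich in *JCHAIN* also held part of the germinal center RNA. *MEF2B* stood at 689 CPM in them and 420 CPM in the rest, and *RGS13* at 449 and 293 CPM, whereas *HMCES* stood at 241 against 590 CPM. *VPREB3*, a gene of the B lineage list, stood at 6364 against 1540 CPM. *TNFRSF18*, which encodes GITR, stood at 335 against 18.1 CPM. *SDC1*, a plasma cell surface marker, gave no UMI in the 244 cells.

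Genes of bone marrow B cell precursors were low in the ileum cells. The 11 genes in the files summed to 19.7 CPM in Ileum NB, 93.0 CPM in Colon NB, 280 CPM in Liver NB, 45.4 CPM in Salivary gland NB, 65.2 CPM in Jejunum AD, and 4.16 to 8.24 CPM in the other AD libraries. The recombinase gene *RAG1* and the terminal transferase gene *DNTT* gave no UMI, where a count of 0 allows up to 0.121 CPM. The surrogate light chain gene *VPREB1* stood at 2.82 CPM against 55.8 CPM in Colon NB, 161 CPM in Liver NB, 38.1 CPM in Jejunum AD, and 1.31 to 5.99 CPM in the other 4. In Ileum NB, 32 of its UMIs were in the 244 cells rich in *JCHAIN* and 38 in the rest. Among B lineage genes, *CD24*, a surface protein of immature and activated B cells, was highest in Ileum NB at 250 CPM, with 118 CPM in Colon NB, 152 CPM in Salivary gland NB, 19.9 CPM in Liver NB, and 5.25 to 22.7 CPM in the AD libraries. It was the only one of 18 B lineage genes over 2-fold higher than Colon NB (0.481% of all genes), with a ratio of 2.13 (1.97 to 2.29). *FCRLA*, an intracellular Fc receptor-like protein of germinal center B cells, was also highest in Ileum NB, at 294 CPM against 218 CPM in Colon NB and 9.95 to 137 CPM in the other 6.

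Part of the genes of growth and metabolism were higher in the ileum than in the AD libraries. Of 26 genes measured, 12 were over 2-fold higher than the AD mean (11.9% of all genes) and none was lower. Against the NB mean, 1 of 25 was higher and 1 was lower (3.79% and 7.02% of all genes), against Salivary gland NB 13 of 25 were higher (15.5%), and against Colon NB none was. The 28 in the files summed to 7677 CPM in Ileum NB, 5856 CPM in Colon NB, 6063 CPM in Liver NB, 4268 CPM in Salivary gland NB, and 3068 to 4454 CPM in the AD libraries. *PAICS*, an enzyme of purine synthesis, stood at 367 CPM in Ileum NB, 283 CPM in Colon NB, and 84.4 to 160 CPM in the other 6.

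Genes of cell death and survival differed singly. Of 19 measured, 2 were over 2-fold higher and 1 over 2-fold lower than the NB mean, where 3.79% and 7.02% of all genes were. Against the AD mean 3 were higher and 1 was lower, where 11.9% and 6.89% of all genes were, so few members were called in any of these. *CASP9*, the initiator caspase of the mitochondrial pathway, stood at 100 CPM in Ileum NB, 106 CPM in Colon NB, 7.96 CPM in Liver NB, 6.55 CPM in Salivary gland NB, and 5.69 to 23.6 CPM in the AD libraries, so it was high in both NB intestines. *BIRC3*, an inhibitor of apoptosis that NF-kappaB induces, was lowest in Ileum NB at 46.7 CPM, with 65.9 CPM in Colon NB, 101 CPM in Liver NB, 228 CPM in Salivary gland NB, and 150 to 213 CPM in the AD libraries. *CDKN1A*, the cell cycle inhibitor p21, stood at 54.1 CPM in Ileum NB, below the other NB libraries (87.6 to 135 CPM) and above the AD libraries (4.59 to 7.44 CPM). Immediate early and heat shock genes, which dissociation can raise, summed to 13821 CPM in Ileum NB, 13626 CPM in Colon NB, 7602 to 9288 CPM in the other NB libraries, and 3979 to 9809 CPM in the AD libraries. In the T cells of the ileum they summed to 33497 CPM, and their part in the differences by stage was not tested.

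Among 7 measured genes of Toll-like receptor signaling, none was past 2-fold from either mean. Of all genes, 3.79% were higher and 7.02% lower than the NB mean, and 11.9% and 6.89% than the AD mean. With so few genes, a count of 0 is not far from these shares. Of 12 TNF family receptors and ligands measured against the NB mean, 1 was higher and 2 were lower, where 3.79% and 7.02% of all genes were. Of 16 trafficking genes, which include *CCR7* and *CD44*, 1 was higher and 7 were lower than the same mean. Against Colon NB, 0 of 16 were higher and 2 were lower, where 0.481% and 1.31% of all genes were. Against Salivary gland NB, 1 of 15 was higher and 9 were lower, where 15.5% and 9.97% of all genes were. The immunoglobulin constant chains are not named in the gene file, so the antibody class of these cells was not analysed here.

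Within the ileum library, cells were set apart by their cell cycle RNA at 1000 UMIs. The 1922 cells with at least 5 UMIs of the G2M list (median 7186 UMIs before thinning) were compared with the 341 cells with at most 1 UMI of both lists (median 3804 UMIs), and 1289 cells lay between. The mark of 5 again cuts a continuous range, with 283 cells at 4 and 228 at 5. Genes of both lists chose the cells and are not described. Of all 7072 genes measured, 8.61% were over 2-fold higher and 9.83% over 2-fold lower in the G2M-high cells.

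Part of the germinal center list was higher in the G2M-high cells of the ileum. Of 19 genes measured, 7 were over 2-fold higher in the G2M-high cells and 3 were over 2-fold lower, where 8.61% and 9.83% of all genes were. *EZH2* stood at 227 CPM in the high cells and 20.8 CPM in the low cells, a ratio of 10.9 (7.70 to 16.0). *MYBL1* stood at 135 and 33.2 CPM (ratio 4.08, 3.09 to 5.49). *HMCES* stood at 717 and 205 CPM, *BCL6* at 101 and 38.4 CPM, and *S1PR2* at 87.1 and 33.2 CPM. *MEF2B* stood at 434 against 526 CPM (ratio 0.825, 0.767 to 0.889) and *RGS13* at 313 against 343 CPM (ratio 0.913, 0.834 to 1.00). For these 2 genes the direction depended on how the cells were divided. At 1000 UMIs, *RGS13* was found in 28.4% (25.4% to 31.5%) of the cells with a UMI of *MKI67* and 21.8% (20.3% to 23.5%) of the rest, and *MEF2B* in 34.4% (31.2% to 37.7%) and 31.6% (29.9% to 33.4%). The low cells also held more *JCHAIN* (8861 against 701 CPM), and cells rich in *JCHAIN* were high in both genes. The part of such cells in the direction of these 2 genes was not tested.

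The low cells carried more light zone, naive, and plasma cell RNA. Of 15 light zone genes 7, of 16 naive genes 6, and of 16 plasma cell genes 12 were over 2-fold lower in the G2M-high cells (9.83% of all genes), and 1, 0, and 0 were higher (8.61%). Markers of other cell types were also higher in the low cells, and their part in these differences was not tested. The myeloid list stood at 81.8 CPM in the high and 435 CPM in the low cells (8 of 9 genes over 2-fold lower in the high cells), the stromal list at 104 and 309 CPM (7 of 8), the epithelial list at 47.1 and 96.3 CPM, and the endothelial list at 33.3 and 85.9 CPM. The T cell list stood at 109 and 116 CPM. *CD83*, a light zone surface protein, stood at 197 CPM in the high cells and 591 CPM in the low cells. *CCND2*, the D-type cyclin of resting and newly stimulated B cells, stood at 17.7 and 140 CPM. *CCR7* stood at 40.1 and 136 CPM and *CD44* at 15.9 and 85.9 CPM, so both receptors were lower in the cycling cells of the ileum. *JCHAIN* stood at 701 and 8861 CPM and *MZB1* at 159 and 1181 CPM.

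**Figure D4:**
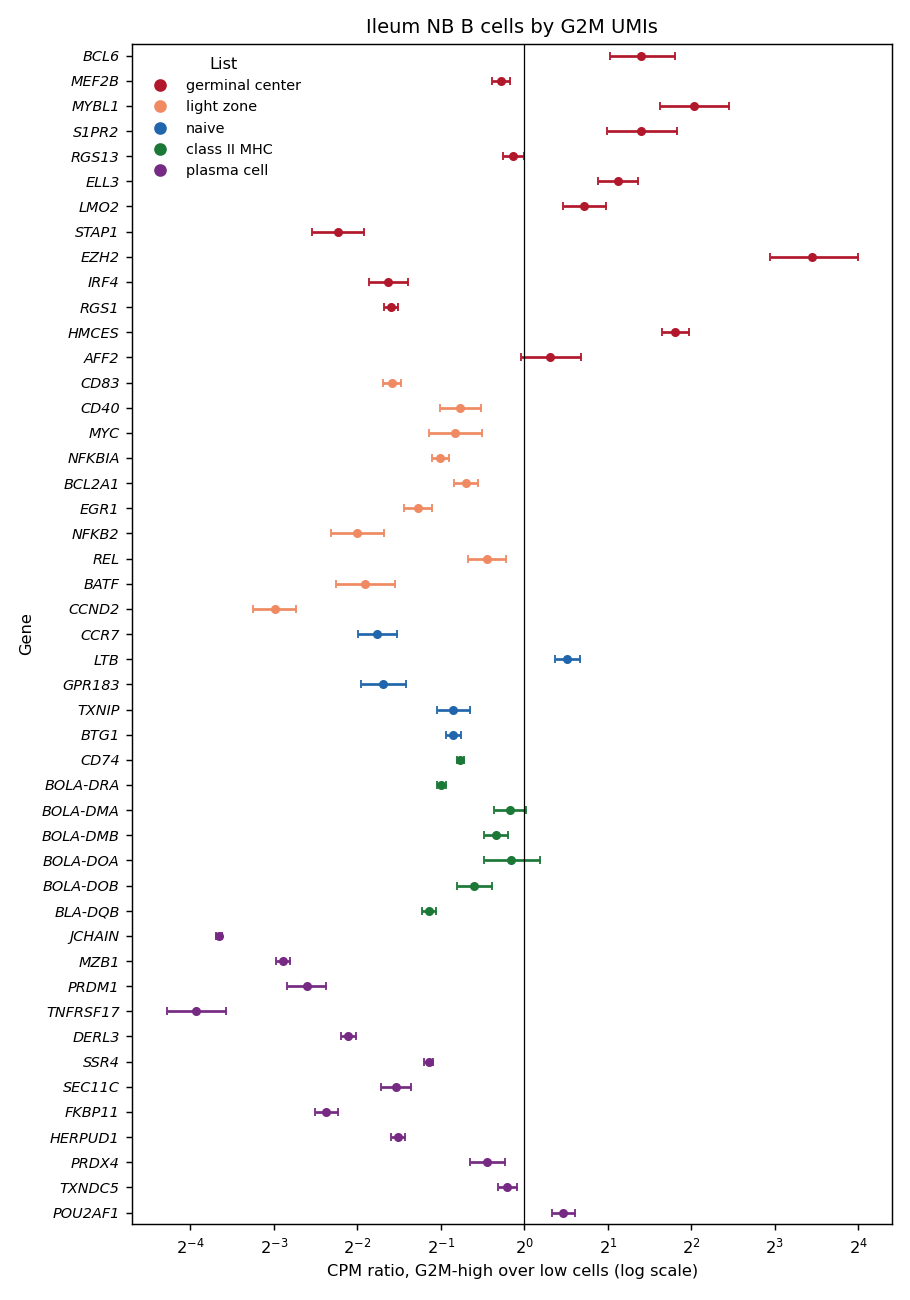
Ratio of CPM in G2M-high to low cells of the Ileum NB library (log axis, bars are exact intervals of the ratio) for genes of 5 lists with at least 50 CPM in either class. *EZH2* (10.9), *MYBL1* (4.08), and *HMCES* (3.50) lie right of 1, *RGS13* (0.913) and *MEF2B* (0.825) lie near 1, and *JCHAIN* (0.0791), *CCND2* (0.126), and *MZB1* (0.135) lie far left.

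The summed class II list was lower in the G2M-high than in the low cells of the ileum (3822 and 6767 CPM), but 1 of 8 genes measured was over 2-fold lower, beside 9.83% of all genes. The sum was also lower in the low cells of the ileum than in low cells of Colon NB, Salivary gland NB, and the AD libraries. *BOLA-DRA* stood at 1033 CPM in G2M-high and 2057 CPM in low cells of the ileum, *BLA-DQB* at 399 and 883 CPM, and *CD74* at 1853 and 3156 CPM. In low cells alone, the class II list summed to 6767 CPM in Ileum NB (341 cells), 10550 CPM in Colon NB (170 cells), 11245 CPM in Salivary gland NB (150 cells), and 8288 to 12891 CPM in the AD libraries (91 to 251 cells). The myeloid list in the same low cells stood at 435 CPM in Ileum NB, 1115 CPM in Colon NB, 82.8 CPM in Salivary gland NB, and 145 to 2033 CPM in the AD libraries, and its part in the class II sums was not tested. *BOLA-DRA* in low cells of the ileum was close to Duodenum AD and Colon AD (2067 and 2084 CPM) and below Colon NB (3704 CPM) and Salivary gland NB (3939 CPM). For *CCR7*, low cells stood at 136 CPM in Ileum NB, 219 CPM in Colon NB, 333 CPM in Salivary gland NB, and 11.3 to 34.8 CPM in the AD libraries.

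*MEF2B* and *RGS13* were higher in the low cells of the ileum than in low cells of the 6 other libraries compared. The low cells of the libraries were not alike, since the plasma cell list stood at 16013 CPM in those of the ileum and 33628 to 81925 CPM in those of the AD libraries. *MEF2B* stood in low cells at 526 CPM in Ileum NB, 265 CPM in Colon NB, 2.43 CPM in Salivary gland NB, and 9.92 to 129 CPM in the AD libraries. *RGS13* stood at 343 CPM in Ileum NB, 76.3 CPM in Colon NB, 0 in Salivary gland NB, and 1.42 to 181 CPM in the AD libraries. In G2M-high cells the order differed for *RGS13*, with 313 CPM in Ileum NB, 230 CPM in Colon NB, 515 CPM in Duodenum AD (68 cells), 600 CPM in Cecum AD (39 cells), and 668 CPM in Colon AD (12 cells).

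Among named genes with at least 50 CPM in Ileum NB, 1046 were higher there than in each of the 7 libraries, by any margin. Among named genes with at least 50 CPM in each of the 7 libraries, 176 were lower in Ileum NB than in each. The floors are unlike, so these counts cannot be set against each other. Of the 12 higher genes with the widest margin, several are genes of the gut wall rather than of B cells. *REG3G*, an antimicrobial lectin of the intestinal epithelium, stood at 418 CPM in the ileum B cells and at most 9.62 CPM in the other libraries, but at 2303 CPM in the ileum non-leukocytes. It was found in 31.1% of the gate cells and 32.4% of the other barcodes of the library, and the part of free RNA in its level was not tested. *APOE* (546 CPM, with 4378 CPM in non-leukocytes and 3097 CPM in T cells of the ileum), both genes with the symbol *PLA2G2A* (199 and 325 CPM, with 1561 and 1083 CPM in non-leukocytes), *LYSB* (108 and 464 CPM), and *PKIG* (55.2 and 458 CPM) were likewise higher in non-leukocytes. *GUCA2A* (77.2 CPM in B cells) and *ISG15* (149 CPM) were higher in the ileum T cells, at 114 and 526 CPM. *GUCA2A* lost its place when at least 2 UMIs of both gate genes were asked for, with Colon NB (620 cells) nearest.

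The other 4 of the 12 were higher in the B cells than in the ileum T cells and non-leukocytes. *MAP1LC3C*, a member of the LC3 family of autophagy proteins, stood at 65.4 CPM in the ileum B cells, 27.5 CPM in Colon NB, 0 to 5.74 CPM in the other 6 libraries, 0 in the ileum T cells, and 9.92 CPM in the non-leukocytes. *MMP28*, a secreted metalloproteinase, stood at 61.7 CPM against 33.9 CPM in Colon NB, 25.9 CPM in Liver NB, and 2.19 to 20.5 CPM in the other 5, with 15.8 CPM in the ileum T cells. *SLC1A5*, a glutamine transporter, stood at 67.1 CPM against 37.3 CPM in Colon NB and 10.5 to 33.8 CPM in the others, and *CISD1*, a protein of the outer mitochondrial membrane, at 83.3 CPM against 21.4 to 47.7 CPM. *MMP28* and *CISD1* lost this place when at least 2 UMIs of both gate genes were asked for, with log2 differences from the nearest library of -0.50 and -0.082. The nearest library was then Liver NB, of which 13 cells were left.

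The 12 lower genes led with *PDCD4*, an inhibitor of translation, at 30.2 CPM in Ileum NB, 97.5 CPM in Colon NB, 199 CPM in Salivary gland NB, 185 CPM in Liver NB, and 164 to 241 CPM in the AD libraries. *BLA-DQB*, *BOLA-DRA*, and *CD44*, given above, were among them, as was *JSP*, a class I MHC gene, at 875 CPM against 1294 to 2870 CPM. *UBD*, a ubiquitin-like protein that interferon and TNF induce, stood at 303 CPM against 495 CPM in Colon NB and 668 to 1970 CPM in the others. The other 6 were *CYSTM1* (47.1 CPM), *ITM2B* (40.6 CPM), *FXYD5* (46.5 CPM), *MACF1* (51.2 CPM), *SREBF2*, a regulator of sterol synthesis (49.2 CPM), and *GSN*, the actin-severing protein gelsolin (52.9 CPM). The library nearest to Ileum NB was Colon NB for 8 of the 12 and Duodenum AD for 4. *GSN* lost its place under 2 other gates, with a log2 difference from the nearest library of 1.26 at 2 or more UMIs of both gate genes (Liver NB, 13 cells) and 0.67 without barcodes that held a marker of another lineage (Salivary gland NB, 333 cells).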

How the data were processed

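Droplet-based single-cell 3′ libraries of cattle were used, 15 from 11 tissues. The authors demultiplexed the reads and counted UMIs with Cell Ranger 3.1.0 on the ARS-UCD1.2 genome, and deposited the raw UMI count of every gene in every barcode. The annotation release and strand setting are not given in the sources used here. The files list 27270 genes, of which 7540 have no symbol and held 4.72% of the UMIs of the ileum gate cells. The numeric limits of the gate follow the study's methods, except that its limit on mitochondrial UMIs was not applied. Doublets were not removed in the values reported.

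The members, gene lists, and comparisons were chosen with earlier results of these data known. Of 456 list genes, 431 were in the files. Counts of gate cells were summed per library and scaled to CPM. Genes with at least 10 CPM in either group were compared on the log2(CPM + 5) scale, which understates changes of low genes, and a count past 2-fold has no replicate check. Genes named outside the lists are the 12 in each direction with the largest smallest difference from the 7 libraries. Higher genes needed at least 50 CPM in Ileum NB, and lower genes at least 50 CPM in each of the 7 libraries. Shares per cell were taken after thinning to 1000 UMIs with a fixed seed. Intervals are exact (95%, Poisson, Clopper-Pearson, or conditional binomial for ratios) and cover counting error only, since replicates were absent. A count of 0 was given the limit of 3 UMIs per library. The comparison was run on simulated Poisson counts, where all 200 genes of at least 50 CPM changed 4-fold were recovered. The 4-fold change lay well past the 2-fold mark, so recovery was largely set in advance. Differences between animals, tissues, and dissociations were not simulated, so the recovery does not bear on them. Alternatives were other gates, thinning depths, scalings (edgeR 4.0.16 TMM, DESeq2-type median of ratios), pseudocounts, floors, libraries left out, and a Scrublet-type doublet score. Software was matplotlib 3.10.9, scikit-learn 1.9.0, pandas 2.3.3, SciPy 1.17.1, and NumPy 2.4.6 under Python 3.11.15, and R 4.3.3. A few genes of the lists are not reported here singly.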

Additional observations from a re-analysis of the deposited data

How the results depend on the processing

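No paired analysis was possible because each tissue and stage had 1 library and the replicate number only names it. Each value has no replicate error, stage, animal, and dissociation cannot be told apart, and counts past 2-fold rest on the pseudocount and on which NB libraries form the mean. The alternatives that left out cells rich in *JCHAIN*, that used Colon NB or Salivary gland NB alone as the reference, or that used cells low in cell cycle RNA were chosen after seeing the data.

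The share of barcodes in the gate (47.3%) was 50.3% under 10% mitochondrial UMIs, 53.2% at 1000 or more genes, 32.8% at 2 or more UMIs of both gate genes, 40.4% without barcodes that held *EPCAM*, *COL1A2*, *PECAM1*, *CD3D*, *CD3G*, or *CSF1R*, 45.9% without likely doublets, and 44.1% without cells rich in *JCHAIN*. The share with *MKI67* (24.2%) was 22.6% under 10% mitochondrial UMIs, 25.7% at 2 or more UMIs, 21.8% without barcodes of other lineages, 14.3% and 35.5% when thinned to 500 and 2000 UMIs, and 49.1% without thinning.

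The G2M level (11712 CPM) was 11426 CPM with no upper limit on genes, 11974 at 1000 or more genes, 12199 at 2 or more UMIs, 11805 without barcodes of other lineages, 12105 without cells rich in *JCHAIN*, 12176 with TMM, 11101 with median of ratios, and 12349 without mitochondrial genes in the total. The S phase level (5879 CPM) was 6243 with no upper limit, 6009 at 1000 or more genes, 6233 at 2 or more UMIs, 5977 without likely doublets, 6092 without cells rich in *JCHAIN*, 6112 with TMM, 5572 with median of ratios, and 6198 without mitochondrial genes. The G2M ratio to Colon NB (1.19) was 1.2 under 10% mitochondrial UMIs and 1.2 without barcodes of other lineages, 1.06 with no upper limit on genes, 1.08 at 2 or more UMIs, 1.16 without cells rich in *JCHAIN*, 1.24 with TMM, and 1.18 with median of ratios.

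Genes over 2-fold higher than the NB mean (273) numbered 417 at a pseudocount of 1 and 100 at 20, 103 to 716 when 1 NB library was left out, 33 against Colon NB alone, and 1137 against Salivary gland NB alone. Genes over 2-fold lower (506) numbered 218 at a pseudocount of 20, 194 at a floor of 50 CPM, 347 to 777 when 1 library was left out, and 90 against Colon NB alone. The germinal center count (9) was 5 at a pseudocount of 20, 4 to 12 when 1 library was left out (4 without Liver NB and 4 without Salivary gland NB), and 0 against Colon NB alone. The naive count (9) was 5 at a floor of 50 CPM, 5 to 12 when 1 library was left out (5 without Salivary gland NB), and 1 against Colon NB alone. Genes over 2-fold higher than the AD mean (854) numbered 439 at a pseudocount of 20 and 521 at a floor of 50 CPM, and those lower (494) numbered 216 and 219.

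*CASP9* reversed, with a log2 difference of -0.085 against Colon NB alone beside 1.21 against the NB mean. *CXCR4* stood at 0.36 without Salivary gland NB beside -0.91, *JCHAIN* at 2.32 against Salivary gland NB alone beside -0.41, and *GUCA2A* was at -0.11 from its nearest library at 2 or more UMIs beside 0.98. TMM moved the median difference of all genes from 0.07 to 0.16 (NB) and from 0.11 to 0.14 (AD). The other 117 of the 173 recomputed summary values moved by less than their interval or by less than 1.5 times.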
